A study of Arabidopsis thaliana x Arabidopsis arenosa and Arabidopsis suecica with 6 samples.

Results

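The 10 genes described here encode the enzymes that build starch in the chloroplasts of Arabidopsis leaves. They were chosen by gene code, not by their expression: GBSS1 (AT1G32900), ADG1 (AT5G48300), APL1 (AT5G19220), PGM1 (AT5G51820), PGI1 (AT4G24620), SS1 (AT5G24300), SS2 (AT3G01180), SS3 (AT1G11720), SBE2.1 (AT2G36390) and SBE2.2 (AT5G03650). All 10 codes were listed, as 10 of 17885 genes in all (11 of 22890 transcripts, PGI1 having 2), and all 10 passed the filter on low values. Messenger RNA was measured in rosette leaves of allotetraploids, which hold genomes of both A. thaliana (T) and A. arenosa (A), taken before bolting at 6 to 7 weeks of age from plants grown with 16 h of light at 22 °C and 8 h of dark at 20 °C. Class T3A1, with 3 T genomes and 1 A genome, comprised the F1 crosses TTTA (A. thaliana named before AlloF8) and TATT (AlloF8 named before A. thaliana). Class T1A3, with 1 T genome and 3 A genomes, comprised the F1 crosses AATA (A. arenosa named before AlloF8) and TAAA (AlloF8 named before A. arenosa). Each of these 4 crosses had 3 libraries. Natural A. suecica and AlloF8, the resynthesized allotetraploid of generation F8 that is a parent of all 4 crosses, carry T and A genomes in equal number and had 2 libraries each. The labels say neither which parent was the mother nor that replicates came from separate plants. P-values therefore measure the spread between these libraries, which may be technical. For totals of A. suecica against AlloF8 the spread used was that of all genes of like level, not that of the single gene. The hour of harvest is not given in the sources used here.

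Starch is made in leaves by day and is broken down at night. Plastid phosphoglucose isomerase (PGI1) and phosphoglucomutase (PGM1) lead photosynthate from fructose 6-phosphate to glucose 1-phosphate, and ADP-glucose pyrophosphorylase, an enzyme of small subunits (ADG1) and large subunits (APL1 is the main one of leaves), makes the sugar donor ADP-glucose in the committed step. Soluble starch synthases (SS1, SS2, SS3) lengthen the chains of amylopectin and branching enzymes (SBE2.1, SBE2.2) introduce its branches, while granule-bound starch synthase (GBSS1) makes amylose inside the granule. Transcript of GBSS1 is known to cycle over the day in A. thaliana, high in the morning and under the control of the clock factors CCA1 and LHY.

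Because clock and light factors bind known short motifs, the 250 bases before the annotated start of each A. thaliana gene were read from the TAIR10.1 genome. Shown are GBSS1, the member with the widest fold range of totals, PGM1 and SBE2.2, the only members with a searched clock motif, and SBE2.1, the only member with its highest value in replicate 2 of every F1 cross. GBSS1 lies on the minus strand at chr1:11923867-11924116, PGM1 on the minus strand at chr5:21068328-21068577, SBE2.2 on the plus strand at chr5:931512-931761 and SBE2.1 on the plus strand at chr2:15263961-15264210. Each is written in the gene's own direction, and capitals mark a motif match on either strand.
GBSS1: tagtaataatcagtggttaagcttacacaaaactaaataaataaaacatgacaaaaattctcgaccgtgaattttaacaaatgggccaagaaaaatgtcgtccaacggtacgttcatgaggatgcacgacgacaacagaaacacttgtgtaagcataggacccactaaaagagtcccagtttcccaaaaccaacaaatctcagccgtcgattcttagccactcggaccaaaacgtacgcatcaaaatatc
PGM1: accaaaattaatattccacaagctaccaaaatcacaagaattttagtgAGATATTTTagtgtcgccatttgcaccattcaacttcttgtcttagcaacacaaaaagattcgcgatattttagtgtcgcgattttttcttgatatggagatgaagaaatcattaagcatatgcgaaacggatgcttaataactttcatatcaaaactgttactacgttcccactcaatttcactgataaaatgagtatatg
SBE2.2: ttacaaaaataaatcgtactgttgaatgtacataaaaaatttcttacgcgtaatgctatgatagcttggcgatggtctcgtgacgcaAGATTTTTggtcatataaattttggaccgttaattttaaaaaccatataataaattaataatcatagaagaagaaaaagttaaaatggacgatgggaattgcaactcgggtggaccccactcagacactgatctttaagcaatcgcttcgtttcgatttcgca
SBE2.1: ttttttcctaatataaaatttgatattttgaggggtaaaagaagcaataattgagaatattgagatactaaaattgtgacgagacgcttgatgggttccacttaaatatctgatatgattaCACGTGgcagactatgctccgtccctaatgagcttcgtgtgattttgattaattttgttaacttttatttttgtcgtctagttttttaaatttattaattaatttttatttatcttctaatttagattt
The evening element AAAATATCT was in 2.36% of 27443 promoters and in 1 of the 10, PGM1. The CCA1 binding site AAAAATCT was in 6.69% of promoters and in 1 of the 10, SBE2.2. The G-box CACGTG was in 6.49% of promoters and in 4 of the 10, namely SS3, SBE2.1, PGI1 and SS1. GBSS1 held none of these 3 motifs within this window. However, its window ends in the evening element short of the last letter, and bases past the annotated start were not searched. Partial matches were not counted in any promoter, so this one does not set GBSS1 apart. The A. arenosa copies of these promoters were not analysed here.

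Expression was deposited as RPKM, a read count scaled by transcript length and by the size of the library, with separate values for the T and A homoeologs of a transcript. A total is their sum and the T share is the T part of that sum. The deposited unit leaves the depth of each library unknown. The RPKM of a library summed to between 613044 and 781415. Of 160 values (10 genes in 16 libraries) 1 was missing, SS3 in replicate 2 of TAAA. Markers of leaf (5 of 5 listed) summed to 8890 RPKM or more in every library, and none of 5 flower markers was listed. Root markers IRT1 and PYK10 were not listed, and those listed summed to 10.4 to 23.8 RPKM. The senescence marker SAG12 was not listed, while the other senescence markers summed to 4.82 to 70.9 RPKM in T3A1 and 9.22 to 51.1 RPKM in T1A3. In bulk leaf RNA, fewer cells of a type and less RNA per cell cannot be told apart. The tests are limma on log2(RPKM + 0.5) over all genes with Benjamini-Hochberg adjustment and a threshold of 0.05, with replicate number as a block in the F1 comparisons. Differences are on that scale, which understates the change of low genes, and are T3A1 minus T1A3 in the F1 crosses.

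The comparison of the F1 classes asked whether the total of a gene changed when T genomes stood in place of A genomes. Of the 10 starch synthesis genes, 2 were higher in T3A1 (PGM1 and ADG1), 5 were lower (GBSS1, SS2, SBE2.2, APL1 and PGI1) and 3 did not pass the test (SBE2.1, SS1 and SS3). Over all 13513 genes tested, 16.9% were higher and 21.4% lower. The median difference was -0.22 over the 10 genes and -0.05 over all genes. When each library was rescaled to 1 median, all genes split into 2974 higher and 2268 lower, against 2283 and 2895 before, and the 10 genes into 3 higher, with SBE2.1 added, and 5 lower. For no member did every T3A1 library lie above or below every T1A3 library, which for all genes was so in 4.37% (T3A1 above) and 5.33% (T3A1 below).

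**Figure D1:**
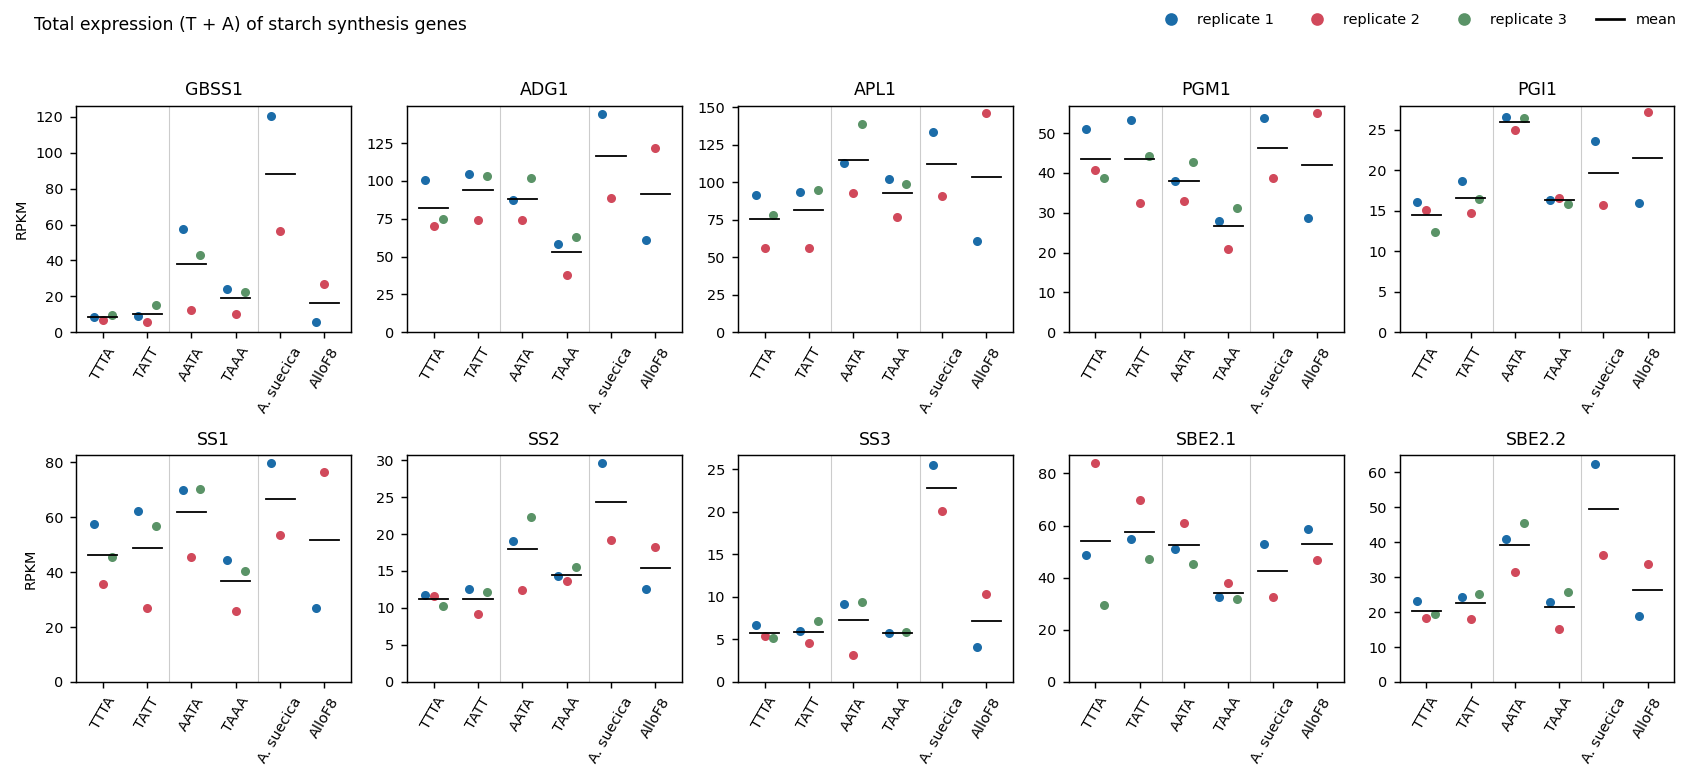
Total RPKM (linear axis from 0) of the 10 starch synthesis genes in each library, by cross, with T3A1 crosses left of T1A3 crosses and A. suecica left of AlloF8; points are libraries, colours mark replicate numbers and bars are means. GBSS1 reached 57.7 RPKM in AATA and 120.5 RPKM in A. suecica, against at most 15.4 RPKM in the T3A1 crosses.

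GBSS1, the amylose synthase, differed most between the classes among the 10 genes. Its total was 8.38, 6.86 and 9.88 RPKM in TTTA and 9.31, 5.69 and 15.4 RPKM in TATT, against 57.7, 12.4 and 43.2 RPKM in AATA and 24.2, 9.97 and 22.5 RPKM in TAAA. The classes overlapped by the replicate 2 libraries of T1A3 and replicate 3 of TATT, but within each replicate number both T3A1 libraries were below both T1A3 libraries. The share of all genes with this looser order is not given here, so it does not set GBSS1, or APL1 and SS2 below, apart from other genes. The log2 difference was -1.37 (SE 0.22, limma adjusted p = 0.0018), and with cross means as the replicates it was -1.49 (limma adjusted p = 0.10).

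The enzymes that lead carbon into ADP-glucose did not move together. PGM1, the plastid phosphoglucomutase, had 51.1, 40.7 and 38.8 RPKM in TTTA and 53.4, 32.5 and 44.4 RPKM in TATT, against 38.0, 33.04 and 42.8 RPKM in AATA and 27.9, 20.8 and 31.1 RPKM in TAAA, a difference of 0.44 (SE 0.11, limma adjusted p = 0.014). TAAA was the low cross, and without it the difference was 0.18 (limma adjusted p = 0.41). PGI1, the isomerase one step before it, went the other way at -0.40 (SE 0.094, limma adjusted p = 0.010). Its 3 AATA libraries, at 26.5, 25.0 and 26.5 RPKM, stood above all others of the F1 crosses, while TAAA had 16.4, 16.6 and 15.9 RPKM, within the 12.4 to 18.7 RPKM of T3A1. Without AATA the difference was -0.07 (limma adjusted p = 0.69).

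The 2 subunits of ADP-glucose pyrophosphorylase also parted. ADG1, the small subunit, had 100.5, 70.5 and 75.2 RPKM in TTTA and 104.8, 74.0 and 103.2 RPKM in TATT, against 87.5, 74.2 and 102.2 RPKM in AATA and 58.5, 38.0 and 63.3 RPKM in TAAA, a difference of 0.36 (SE 0.11, limma adjusted p = 0.025). TAAA was the low cross, and without it the difference was -0.008 (limma adjusted p = 0.98). APL1, the large subunit, had 91.3, 56.3 and 77.9 RPKM in TTTA and 93.3, 56.2 and 94.6 RPKM in TATT, against 112.8, 92.5 and 138.7 RPKM in AATA and 101.9, 77.1 and 98.7 RPKM in TAAA. It was lower in T3A1 by a log2 difference of -0.41 (SE 0.097, limma adjusted p = 0.010), and within each replicate number both T3A1 libraries were below both T1A3 libraries.

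Among the soluble synthases, SS2 was lower in T3A1 and SS1 and SS3 did not pass. SS2, which makes chains of intermediate length, had 11.8, 11.6 and 10.3 RPKM in TTTA and 12.5, 9.12 and 12.1 RPKM in TATT, against 19.1, 12.4 and 22.3 RPKM in AATA and 14.3, 13.7 and 15.5 RPKM in TAAA. Its difference was -0.49 (SE 0.13, limma adjusted p = 0.015), again with both T3A1 libraries below both T1A3 libraries within each replicate number. SS1 differed by -0.04 (95% interval -0.28 to 0.20, limma adjusted p = 0.81). SS3 differed by 0.02 (95% interval -0.43 to 0.48, limma adjusted p = 0.94) over 11 F1 libraries.

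The branching enzymes lay on opposite sides of 0. SBE2.2 had 23.1, 18.4 and 19.4 RPKM in TTTA and 24.3, 18.0 and 25.1 RPKM in TATT, against 40.8, 31.4 and 45.6 RPKM in AATA and 22.9, 15.2 and 25.8 RPKM in TAAA, a difference of -0.42 (SE 0.10, limma adjusted p = 0.012). AATA was the high cross, TAAA overlapped with T3A1, and without AATA the difference was 0.03 (limma adjusted p = 0.90). SBE2.1 had 48.6, 84.2 and 29.5 RPKM in TTTA and 55.0, 69.7 and 47.4 RPKM in TATT, against 51.1, 61.1 and 45.3 RPKM in AATA and 32.7, 38.1 and 31.9 RPKM in TAAA, and its difference of 0.32 (95% interval -0.01 to 0.65) did not pass (limma adjusted p = 0.11).

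These calls compare the 4 crosses and rest on the block. Without it 0 of the 10 genes were higher and 3 lower (GBSS1, SS2 and PGI1), beside 9.43% and 12.1% of all genes, and with cross means as the replicates no gene of either kind was called. GBSS1 was called in 15 of 16 alternative settings and every other member in at most 11. With 1 cross left out, GBSS1 was called each time, at -1.78 to -0.96. APL1 was not called without AATA (-0.26, limma adjusted p = 0.13), where its difference moved by more than 1.5 times, or without TTTA (-0.36). SS2 was not called without AATA (-0.36), TAAA (-0.62) or TATT (-0.49). PGI1 was not called without TTTA either (-0.31), nor ADG1 (0.26) or PGM1 (0.45) without TATT.

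The homoeologs followed the number of their genomes. The T homoeolog was higher in T3A1 for 9 of the 10 genes (96.4% of all genes) and the A homoeolog was lower for all 10 (96.9% of all genes), with medians of 1.48 and -1.55, against 1.41 and -1.44 over all genes. Every T3A1 library lay above every T1A3 library for the T homoeolog in 9 of the 10 genes (82.0% of all genes), and below for the A homoeolog in 8, all but SS1 and SBE2.1 (76.3% of all genes). For the T share all 10 genes were separated (98.5% of all genes), and the ratio of T to A was higher in T3A1 for all 10 (99.7% of all genes), by 2.34 for GBSS1 to 3.63 for ADG1, with a median of 3.06 against 2.88.

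**Figure D2:**
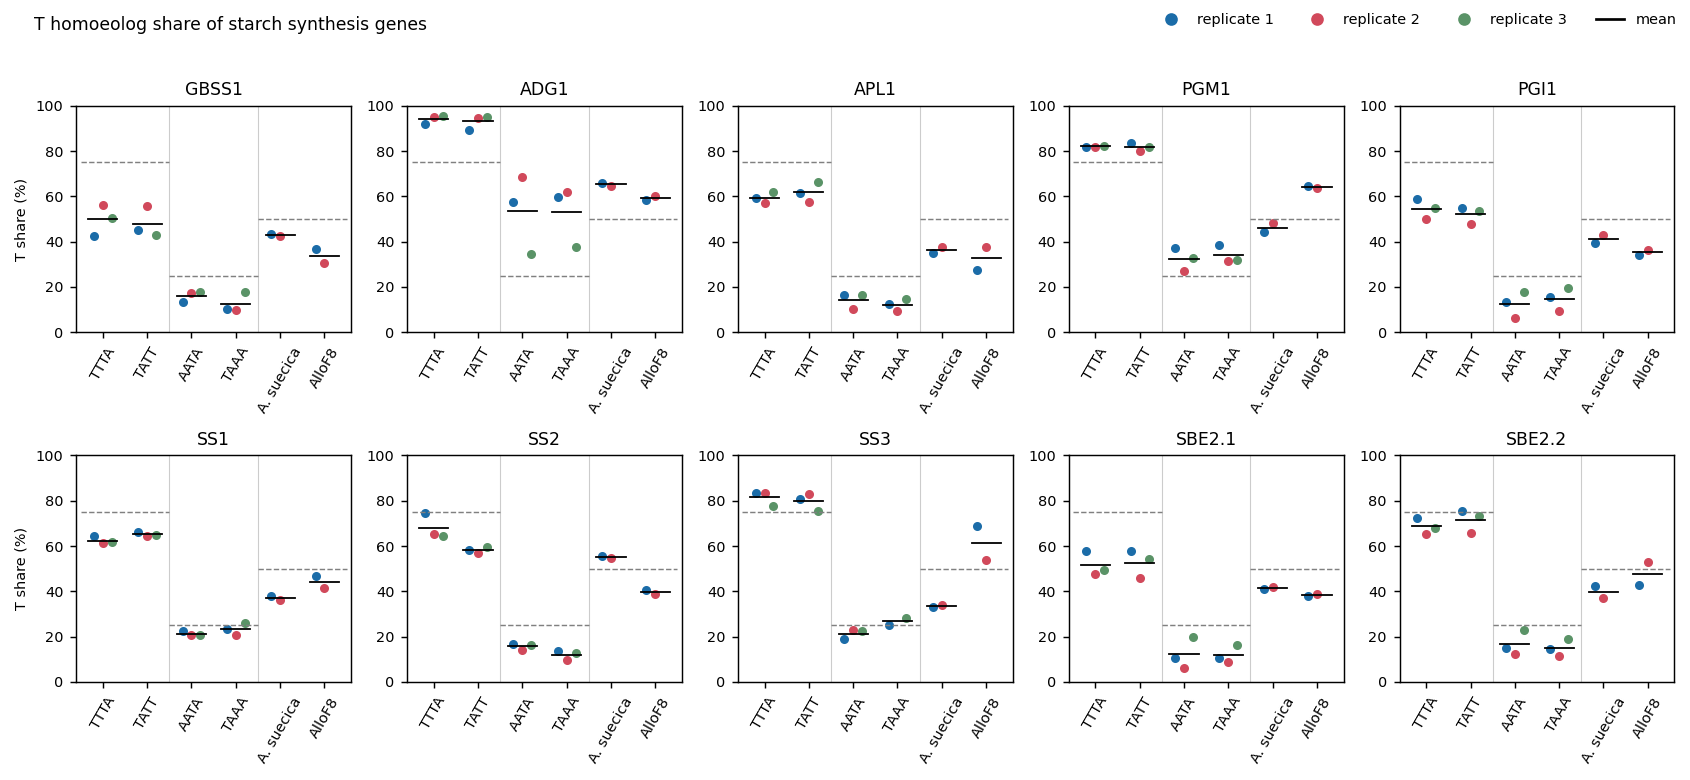
T share of the total in percent for the 10 genes in each library, by cross, with T3A1 left of T1A3 and A. suecica left of AlloF8; the dashed lines are the shares of T genomes. ADG1 lay at 89.4% to 95.6% in T3A1 and at 34.7% to 68.6% in T1A3, while SBE2.1 lay at 45.9% to 58.0% and 5.94% to 19.8%.

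A homoeolog whose level followed its copy number would differ by 1.585 between the classes on the log2 scale, and the change of each homoeolog was tested against that value. Among T homoeologs 2 of the 10 departed from it, SBE2.1 by a larger change (8.62% of all genes) and GBSS1 by a smaller one (25.4% of all genes). The T homoeolog of SBE2.1 had 28.2, 40.0 and 14.6 RPKM in TTTA and 31.9, 32.0 and 25.7 RPKM in TATT, against 5.43, 3.63 and 8.95 RPKM in AATA and 3.42, 3.39 and 5.25 RPKM in TAAA, a change of 2.42 (SE 0.27, limma adjusted p against the ratio 0.039), which was not called without TATT (2.31) or without TAAA (2.19, adjusted p 0.26). The T homoeolog of GBSS1 had 3.58, 3.87 and 4.97 RPKM in TTTA and 4.18, 3.16 and 6.62 RPKM in TATT, against 7.59, 2.12 and 7.66 RPKM in AATA and 2.49, 0.972 and 4.03 RPKM in TAAA. The ranges overlapped although T3A1 holds 3 T genomes, and the change of 0.30 (SE 0.21) was below the ratio (limma adjusted p = 0.0023) and did not differ from 0 by the test (limma adjusted p = 0.18). With 1 cross left out it ran from -0.22 (without TAAA) to 0.82 (without AATA) and was below the ratio by the test each time.

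Among A homoeologs the fall was smaller than the copy ratio for 3 genes, SBE2.1, SS1 and PGI1 (26.9% of all genes), and larger for 1, ADG1 (9.48% of all genes). The A homoeolog of SBE2.1 had 20.4, 44.2 and 15.0 RPKM in TTTA and 23.1, 37.7 and 21.6 RPKM in TATT, against 45.7, 57.5 and 36.3 RPKM in AATA and 29.3, 34.7 and 26.6 RPKM in TAAA, a change of -0.55 (SE 0.15, limma adjusted p against the ratio 0.00088). Its ranges overlapped, with replicate 2 of both T3A1 crosses at the level of T1A3, and it was called with each cross left out, at -0.85 (without TAAA) to -0.25 (without AATA). SS1 changed by -1.11 (SE 0.11, limma adjusted p against the ratio 0.010) and PGI1 by -1.25 (SE 0.098, limma adjusted p 0.023). Both calls rest on TAAA: without it SS1 changed by -1.51 (limma adjusted p against the ratio 0.77) and PGI1 by -1.59 (0.98), which lies past the ratio. They were also not called without a T3A1 cross, SS1 without TTTA (-1.16) and PGI1 without TATT (-1.37).

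The A homoeolog of ADG1 was the one that fell by more. It had 7.92, 3.60 and 3.33 RPKM in TTTA and 11.1, 3.90 and 4.95 RPKM in TATT, against 37.3, 23.3 and 66.7 RPKM in AATA and 23.6, 14.5 and 39.3 RPKM in TAAA, a change of -2.42 (SE 0.27, limma adjusted p against the ratio 0.036), and was called in 1 of the 4 fits that leave out a cross, that without TAAA. GBSS1, at -2.04 (SE 0.21), did not depart from the ratio by the test (limma adjusted p = 0.11). Of these departures, only that of SBE2.1 for the A homoeolog was called without the replicate block, together with both for the T homoeologs.

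**Figure D3:**
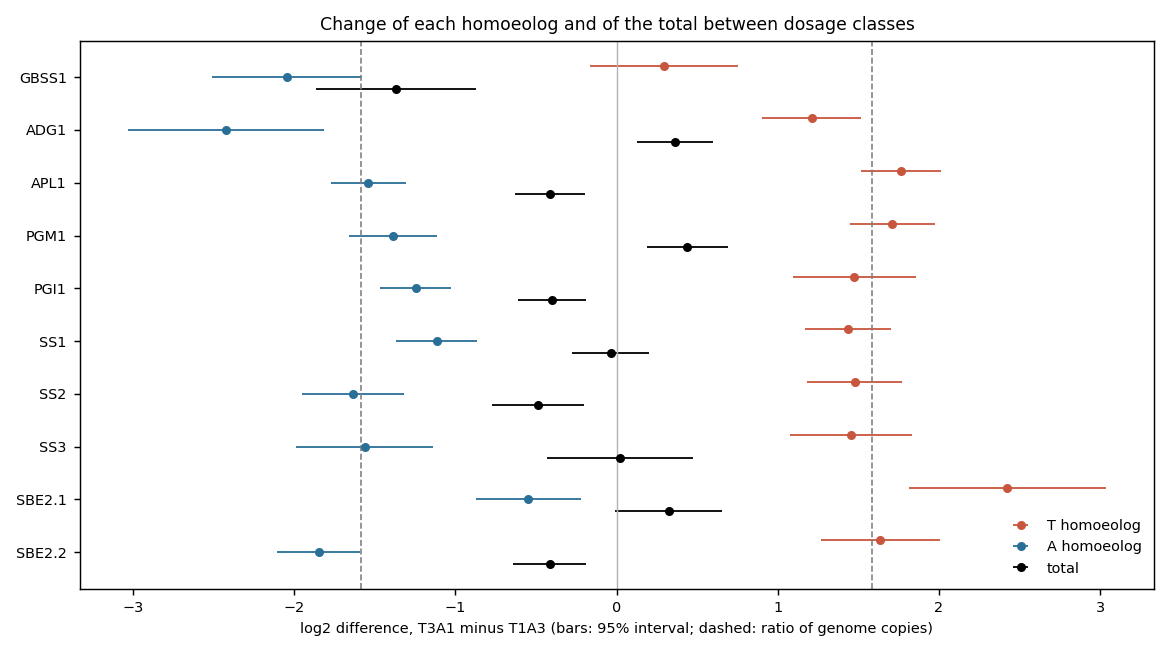
Log2 change, T3A1 minus T1A3, of both homoeologs and of the total of each gene, with 95% intervals as bars; dashed lines mark a change by 1.585 in either direction, the ratio of genome copies. The T homoeolog of GBSS1 lies at 0.30 and the A homoeolog of SBE2.1 at -0.55, nearer to 0 than any other homoeolog of the same genome.

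The 4 F1 crosses together hold as many T as A genomes, so their mean ratio of T to A compares the homoeologs per genome copy. All 10 genes differed from an even ratio, 3 with T over A (35.0% of all genes) and 7 with A over T (43.1% of all genes). ADG1 was the most T-biased, with a mean log2 ratio of 2.01 (SE 0.17, limma adjusted p = 3.8e-07), followed by PGM1 (0.57) and SS3 (0.17). SBE2.1 was the most A-biased at -1.36 (SE 0.11, limma adjusted p = 2.4e-07), followed by GBSS1 (-1.24), PGI1 (-1.18), APL1 (-1.04), SS2 (-0.83), SBE2.2 (-0.56) and SS1 (-0.47). The median of the 10 genes was -0.70, against -0.06 for all genes. The call of SS3 (limma adjusted p = 0.035) was lost under several settings, with p up to 0.50. Reads were mapped to an A. thaliana build per the submitters' processing notes, and the part that mapping to it has in such ratios was not tested.

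The subunits of ADP-glucose pyrophosphorylase carried opposite biases. In T1A3 plants, with 1 T genome in 4, the T homoeolog gave 57.4%, 68.6% and 34.7% of ADG1 transcript in AATA and 59.8%, 61.8% and 37.8% in TAAA. For ADG1 replicate 3 was the lowest in both T1A3 crosses and the only number with the T homoeolog in the minority. For APL1 the T share was 59.2%, 57.0% and 61.8% in TTTA and 61.3%, 57.6% and 66.3% in TATT, against 16.3%, 10.3% and 16.6% in AATA and 12.3%, 9.55% and 14.7% in TAAA, below 75% and 25%, the shares of T genomes, in every library. PGM1, which leaned to T, had a T share of 79.9% to 83.4% in T3A1 and 27.1% to 38.5% in T1A3. GBSS1, which leaned to A, had 42.7% to 56.4% in T3A1 and 9.75% to 17.9% in T1A3.

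Replicate 2 stood apart from the other F1 libraries. GBSS1, ADG1, APL1, SS1 and SBE2.2 had their lowest total in replicate 2 in all 4 crosses, PGM1 and SS2 in 3 of 4, SS3 in 2 of 3 crosses with 3 values and PGI1 in 2 of 4. SBE2.1 went the other way and had its highest total in replicate 2 in all 4 crosses. Among genes with a value in all 12 libraries, these are 5 of 9 members lowest and 1 of 9 highest in all 4 crosses, against 12.1% and 15.1% of 12174 genes. The clock gene TOC1, an evening gene, was also highest in replicate 2 of all 4 crosses, at 69.8 RPKM in TTTA, 86.7 in TATT, 63.8 in AATA and 69.5 in TAAA, against 32.1 to 52.6 RPKM in the other replicates. PRR7, a morning and midday clock repressor, was lowest there in all 4 crosses, at 39.7, 38.0, 22.4 and 28.3 RPKM, against 49.2 to 75.9 RPKM. GI, another evening gene, was lowest in replicate 2 in 3 of 4 crosses and highest there in none. The senescence marker SAG13 was highest in replicate 2 of all 4 crosses, at 27.1 RPKM in TTTA, 50.8 in TATT, 16.7 in AATA and 31.2 in TAAA, and the summed senescence markers were highest there too, at 40.0, 70.9, 26.1 and 51.1 RPKM. The summed leaf markers were lowest in replicate 2 of all 4 crosses, at 23289 RPKM in TTTA, 15353 in TATT, 22672 in AATA and 12771 in TAAA. The summed guard cell markers were lowest there too, at 67.9, 54.5, 85.6 and 50.6 RPKM, while the root markers kept no such order. The labels do not say what a replicate number shares. The part of harvest time, of senescence or of the mix of cells in these values was not tested.

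**Figure D4:**
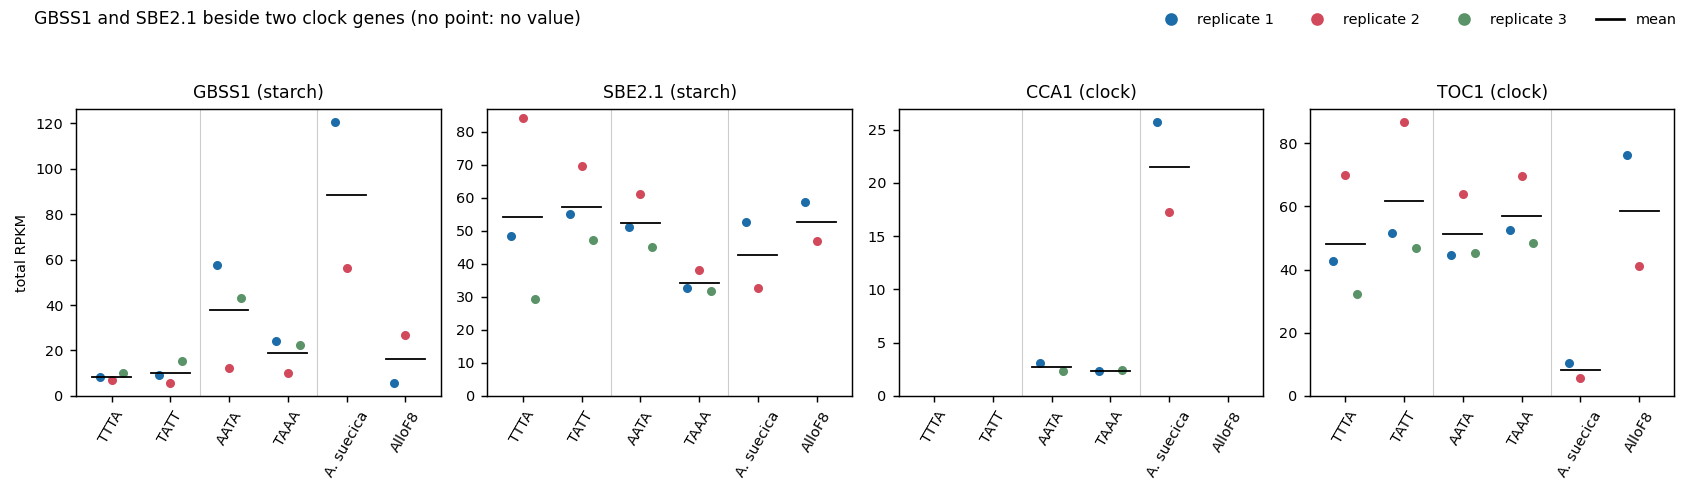
Total RPKM (linear axis from 0) of GBSS1, SBE2.1, CCA1 and TOC1 in each library, by cross, with T3A1 left of T1A3 and A. suecica left of AlloF8; colours mark replicate numbers, bars are means and a missing point means no value. Replicate 2 holds the highest TOC1 and SBE2.1 values and the lowest GBSS1 value of each F1 cross.

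The clock factors that control GBSS1 were near or below the lowest values listed in the F1 libraries. CCA1 had no value in any T3A1 library, and had 3.10 and 2.32 RPKM in AATA and 2.34 and 2.41 RPKM in TAAA, with no value in replicate 2 of either cross. LHY had no value in any F1 library. No nonzero total in the tables was under 2 RPKM, so lower levels cannot be read. Between the classes PRR7 was higher in T3A1 by 0.39 (SE 0.10, limma adjusted p = 0.015), a call lost without the replicate block (adjusted p = 0.37) and with cross means (adjusted p = 0.30), while TOC1 (-0.03, adjusted p = 0.85) and GI (0.23, adjusted p = 0.37) did not pass.

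The order of the parents' names was compared as AlloF8 first (TATT and TAAA) minus AlloF8 second (TTTA and AATA). Averaged over both classes, limma called 0 of the 10 genes (0.0% of all genes), with 5 of the 10 and 2881 of all 13513 genes at an unadjusted p under 0.05, and the median was -0.25 for the 10 genes and 0.00 for all. Within T1A3, a comparison added after the values were seen, 4 genes were lower in TAAA than in AATA (5.22% of all genes). They were SBE2.2 at -0.88 (SE 0.14, limma adjusted p = 0.019), SS1 at -0.75 (SE 0.15, adjusted p = 0.027), ADG1 at -0.74 (SE 0.15, adjusted p = 0.027) and PGI1 at -0.66 (SE 0.13, adjusted p = 0.027). SS1 had 44.2, 25.9 and 40.4 RPKM in TAAA and 69.8, 45.5 and 70.2 RPKM in AATA, and was lower in TAAA within each replicate number. The other 6 genes had negative differences too, from -0.26 (SS2) to -0.82 (GBSS1), and did not pass. The share of all genes with a negative difference is not given here. Medians of the 2 other starch lists described below were also negative, at -0.32 for supply (23 genes) and -0.56 for breakdown (18 genes). Markers of senescent leaf were higher in TAAA as a sum, although limma called 0 of the 2 that were tested within T1A3. The 3 listed of 4, SAG12 having no value, summed to 34.2, 51.1 and 44.9 RPKM in TAAA and 10.8, 26.1 and 9.22 RPKM in AATA. SAG13 alone had 23.5, 31.2 and 29.0 RPKM in TAAA and 5.17, 16.7 and 3.60 RPKM in AATA. The part of these markers in the result was not tested.

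Within T3A1 limma called 0 of the 10 genes (0.0% of all genes; 0 of the 10 and 481 of all genes at an unadjusted p under 0.05), and the differences ran from -0.02 (PGM1) to 0.20 (ADG1). Whether the difference by order differed between the classes was tested directly, and limma called 0 of the 10 genes (0.0148% of all genes; 6 of the 10 and 1886 of all genes at an unadjusted p under 0.05). The values were largest for SBE2.2 at 1.02 (SE 0.20, adjusted p = 0.12) and GBSS1 at 0.99 (SE 0.44, adjusted p = 0.36). Without replicate 2 of each cross 6 of the 10 genes passed, all above 0 (8.19% of all genes), namely ADG1, GBSS1, PGI1, SBE2.1, SBE2.2 and SS1. No member tested passed without replicate 1 (limma adjusted p of 0.93 or more) or without replicate 3 (limma adjusted p = 0.9995). The 4 calls within T1A3 were lost without the replicate block and without replicate 1 or 3.

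Natural A. suecica was compared with resynthesized AlloF8, which has the same ratio of genomes. Of the 10 totals limma called GBSS1 only, higher in A. suecica (1.23% of all genes), and no member was lower. GBSS1 had 120.5 and 56.2 RPKM in A. suecica and 5.79 and 26.8 RPKM in AlloF8, a difference of 2.66 (SE 0.60, limma adjusted p = 0.00070). In this fit of totals the SE came from the spread of all genes of like level, not from the wide spread of GBSS1 itself. With the spread over all 16 libraries the SE of GBSS1 was 0.75 (limma adjusted p = 0.037). SS3 had 25.5 and 20.1 RPKM in A. suecica and 4.06 and 10.4 RPKM in AlloF8, a difference of 1.72 (SE 0.59, limma adjusted p = 0.077). For both genes the groups did not overlap, and the same was true of SBE2.2, with 62.5 and 36.4 RPKM in A. suecica and 18.8 and 33.7 RPKM in AlloF8, and of SS2, with 29.6 and 19.1 RPKM in A. suecica and 12.5 and 18.3 RPKM in AlloF8, neither of which passed (limma adjusted p = 0.60 and 0.81). Both A. suecica libraries thus lay above both AlloF8 libraries in 4 of the 10 genes, against 12.7% of all genes, and below in 0 of the 10, against 25.5% of all genes.

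The call of GBSS1 was lost when each library was rescaled to 1 median (2.88, SE 0.85, limma adjusted p = 0.18). Rescaling moved the median of all genes to 0.04 against -0.18 before. It did not lower the difference of GBSS1, 2.66 before, but raised its SE from 0.60, the SE now resting in part on the gene's own libraries. The call was also lost with replicate number as a block (limma adjusted p = 0.053). Without replicate 1 of A. suecica the difference was 2.11, and without replicate 1 of AlloF8 it was 1.60. Each of these fits leaves 1 library in a group, so only the difference is given and the call is not shown to hold. The libraries of a group also lay far apart: all members but SBE2.1 were lower in replicate 1 than in replicate 2 of AlloF8, and all 10 were lower in replicate 2 than in replicate 1 of A. suecica. The share of all genes with these orders is not given here, so they do not set the members apart. The median gene total was 11.4 RPKM in replicate 1 and 8.54 RPKM in replicate 2 of A. suecica. In AlloF8 it was 12.2 and 10.2 RPKM. Other genes moved with this comparison. CCA1 had 25.7 and 17.3 RPKM in A. suecica and no value in AlloF8, LHY had 2.45 RPKM in 1 A. suecica library, and TOC1 had 10.5 and 5.79 RPKM in A. suecica against 76.2 and 41.0 RPKM in AlloF8, a difference of -2.77 (SE 0.59, limma adjusted p = 0.00031, and 0.070 after rescaling). The 4 guard cell markers summed to 14.0 to 21.6 RPKM in A. suecica and 37.5 to 94.5 RPKM in AlloF8, and limma tested 2 and called 1 lower. GC1 alone had 8.32 and 7.52 RPKM in A. suecica and 27.5 and 75.8 RPKM in AlloF8, and FAMA was also lower in A. suecica. KAT1 went the other way, with 3.93 and 3.23 RPKM in A. suecica and 2.58 RPKM in replicate 2 only of AlloF8. MYB60 did not separate, with 3.01 RPKM in replicate 1 only of A. suecica and 2.67 and 6.52 RPKM in AlloF8. The senescence markers set the AlloF8 libraries apart: they summed to 23.3 and 11.4 RPKM in A. suecica and 75.2 and 5.37 RPKM in AlloF8, where SAG13 (46.1 RPKM) and ORE1 (18.4 RPKM) had a value in replicate 1 only. Leaf markers set them apart too, with sums of 22446 and 19812 RPKM in A. suecica and 8890 and 37006 RPKM in AlloF8. The sum in replicate 1 of AlloF8 was the lowest of all libraries. The part of any of these in the level of GBSS1 was not tested.

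The balance of homoeologs also differed between these plants for 3 of the 10 genes. SS2 had a higher ratio of T to A in A. suecica (10.0% of all genes), and PGM1 and SS3 a lower one (9.53% of all genes). The T share of SS3 was 33.1% and 34.0% in A. suecica and 68.8% and 53.8% in AlloF8, a log2 difference in ratio of -1.49 (SE 0.26, limma adjusted p = 0.016). For PGM1 it was 44.1% and 48.3% in A. suecica and 64.7% and 63.6% in AlloF8, a difference of -1.03 (SE 0.18, adjusted p = 0.017). For SS2 it was 55.6% and 54.6% in A. suecica and 40.7% and 38.9% in AlloF8, a difference of 0.84 (SE 0.17, adjusted p = 0.022). The homoeolog in the majority was therefore not the same in the 2 plants for any of these 3 genes. Without replicate 1 or replicate 2 of A. suecica none of the 3 passed (adjusted p from 0.088 to 0.17).

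SS3 stood out in this pair of comparisons: its A homoeolog had 17.1 and 13.2 RPKM in A. suecica and 1.26 and 4.80 RPKM in AlloF8, and its T homoeolog 8.45 and 6.82 RPKM in A. suecica and 2.79 and 5.58 RPKM in AlloF8. Both homoeologs of GBSS1 lay higher in both A. suecica libraries than in either AlloF8 library, the T homoeolog at 52.5 and 23.8 RPKM in A. suecica and 2.14 and 8.25 RPKM in AlloF8, and the A homoeolog at 68.1 and 32.4 RPKM in A. suecica and 3.65 and 18.6 RPKM in AlloF8. The ratio of GBSS1 did not pass (0.48, 95% interval -0.04 to 1.01, limma adjusted p = 0.17).

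Other genes of starch metabolism were followed in 2 written lists. Of 24 genes that supply substrate or assist synthesis 23 were tested between the F1 classes, and 3 were higher in T3A1, 4 were lower and 16 did not pass (median 0.07, against -0.05 over all genes). Over all genes 16.9% were higher and 21.4% lower, so the list as a whole is near those shares. APL3, a large subunit of ADP-glucose pyrophosphorylase that is induced by sugar, had 4.91 to 11.7 RPKM in T3A1 and 14.9 to 44.2 RPKM in T1A3, a difference of -1.74 (SE 0.27, limma adjusted p = 0.0016). GPT2, a glucose 6-phosphate translocator of the plastid envelope that is also induced by sugar, had 2.82 to 9.71 RPKM in T3A1 and 12.8 to 31.8 RPKM in T1A3, a difference of -1.82 (SE 0.29, adjusted p = 0.0019). For neither gene did the classes overlap. The other 2 lower genes were PGM3, a cytosolic phosphoglucomutase (-0.54, SE 0.14), and the translocator gene GPT1 (-0.37, SE 0.11).

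The 3 higher genes of that list were PTST3 (0.80, SE 0.12, limma adjusted p = 0.0013), whose protein takes part in granule initiation, LESV (0.84, SE 0.13, adjusted p = 0.0014), a protein of the granule matrix, and PTST1 (0.68, SE 0.19, adjusted p = 0.018), which brings GBSS1 to the granule. PTST1 and GBSS1 therefore had differences of opposite sign. PTST1 had 8.48, 12.3 and 8.25 RPKM in TTTA and 9.09, 9.67 and 7.94 RPKM in TATT, against 7.65, 4.65 and 8.89 RPKM in AATA and 3.35, 4.89 and 5.42 RPKM in TAAA, and the classes overlapped. APL3 was also higher in A. suecica, with 60.5 and 26.4 RPKM in A. suecica and 8.63 and 9.92 RPKM in AlloF8, a difference of 2.05 (SE 0.59, adjusted p = 0.019, and 0.079 after rescaling).

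Of 18 starch breakdown genes 2 were higher in T3A1, 0 were lower and 16 did not pass (median 0.17), beside 16.9% higher and 21.4% lower over all genes. LDA, the limit dextrinase, which removes branches, had 9.35 to 12.8 RPKM in T3A1 and 3.37 to 7.61 RPKM in T1A3, a difference of 1.01 (SE 0.11, limma adjusted p = 0.00028). Its T homoeolog was higher by 1.99 (SE 0.13), while its A homoeolog differed by 0.00 (95% interval -0.26 to 0.26), the one A homoeolog of the 18 that was not lower by the test. DPE1, the plastid disproportionating enzyme, differed by 0.39 (SE 0.12, adjusted p = 0.031). Without the replicate block LDA remained called, with APL3, GPT2, PTST1, PTST3 and PGM3, and LESV, GPT1 and DPE1 were not. With cross means as the replicates none of these 9 genes was called.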

How the data were processed

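Values were RPKM of each homoeolog, computed and deposited by the authors in 16 libraries of 6 samples. Per the labels, poly(A) libraries of rosette leaves were made with an Illumina mRNA-seq kit, and the genome build was TAIR 9 per the submitters' processing notes. No source used here names the aligner, the filters or the way reads were split between homoeologs. No nonzero total was under 2 RPKM, and pairs at 0 were treated as missing.

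Where a gene had several transcripts the one of highest mean was used. Genes that averaged 1 RPKM or more, with values in at least 2 libraries of each cross, were tested two-sided on log2(RPKM + 0.5) with limma (version 3.58.1, eBayes, trend; R 4.3.3), in 1 model of the 12 F1 libraries with a mean per cross and replicate number as a block, and p-values were adjusted over all genes. The block was used because same-numbered F1 libraries moved together around their cross means: over 12174 genes the correlations of 18 such pairs were 0.147 to 0.690, and those of the other 36 pairs were -0.639 to 0.526. A. suecica and AlloF8 were fitted apart on 4 libraries without a block. The fits were tested on simulated data.

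The members, the lists and the tests were chosen with earlier results of these data known. Named are all 10 members, the clock genes CCA1, LHY, TOC1, GI and PRR7, up to 4 genes with the smallest p per list and direction among those called in class total, and the genes most like GBSS1 or the mean of the members. LDA and APL3 in other comparisons were named after their values were seen. Promoters and their coordinates are of TAIR10.1 by its own annotation, since the deposited tables hold no coordinates. Alternatives were other pseudocounts (0.1 and 1 RPKM), a minimum of 5 RPKM or none, no block, rescaled libraries, pairs at 0 kept, transcripts averaged, cross means, and each cross or replicate left out. Tables were made with pandas 2.3.3 and figures with matplotlib 3.10.9.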

Additional observations from a re-analysis of the deposited data

How the results depend on the processing

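The number of the 10 genes called depended on the settings as follows. For totals between the F1 classes (7 called) it was 3 with no replicate block and 0 with cross means, and 1 to 6 when a cross or a replicate number was left out. For departures from the copy ratio it was, for T homoeologs (2), 0 at a minimum of 5 RPKM, which leaves out GBSS1, 1 with pairs at 0 kept, 0 with cross means and 0 to 2 in the leave-outs, and for A homoeologs (4), 1 with no replicate block, 0 with cross means and 1 to 6 in the leave-outs. For parental order it was 0 to 5 in the leave-outs (0 before), 0 to 6 for order by class (0 before), and within T1A3 (4) 0 with no replicate block and 0 to 7 in the leave-outs. For A. suecica against AlloF8 totals (1) it was 0 with a replicate block, 0 after rescaling, 2 with the spread of all 16 libraries and 0 to 1 in the leave-outs, and for ratios (3) 0 to 5. The block changed no call of the A. suecica ratios. T homoeolog, A homoeolog and ratio counts between classes stayed within 1.5 times.

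With a cross left out, ADG1 totals ran from -0.008 (without TAAA) to 0.73, SBE2.2 totals from -0.86 to 0.027 (without AATA), and the A change of PGI1 from -1.59 (without TAAA, past the copy ratio) to -0.90. Over all genes, 5178 totals were called between the classes, against 2903 with no block, 0 with cross means, 1500 without replicate 1, 1577 without replicate 3, 3240 without TTTA and 2113 without TAAA. T departures numbered 4570, against 7020 at a pseudocount of 1 and 2896 at 0.1 RPKM, and A. suecica totals 523, against 7 after rescaling. The causes were not tested. Depth is unknown and levels under 2 RPKM are not listed. With 2 libraries each, A. suecica and AlloF8 allow the least precision.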

Other observations

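The totals most like that of GBSS1 over the 12 F1 libraries belonged to CKX7, which encodes a cytokinin oxidase (Pearson r = 0.966), to MBP2, which encodes a myrosinase-binding protein (0.965), and to AT1G73325 (0.965), RBL2 (0.962) and AT5G45280 (0.954), among 11020 genes with a value in all 12 libraries and a mean of at least 5 RPKM. The mean profile of the 10 starch synthesis genes was most like those of HA11, which encodes a plasma membrane proton pump (0.967), AIR9 (0.962), AT1G06900 (0.960), KCS5, which encodes an enzyme of wax synthesis (0.960), and AT5G48460 (0.958). These are descriptions over libraries that share 4 crosses and 3 replicate numbers, and they carry no test.

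A total of 40 checks for a library far from the others of its class, over the totals and T shares of the 10 genes, found 0. Each check asked whether a single library stood alone in its class, so it can miss replicate 2 libraries that moved together. The 10 starch synthesis genes summed to 311 to 440 RPKM in T3A1, 255 to 546 RPKM in T1A3, 451 and 726 RPKM in A. suecica and 293 and 563 RPKM in AlloF8.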
